A study of Mus musculus with 2 samples.

Results

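Transcripts of photoreceptor retinoid handling were followed, chosen by gene symbol from a list of 6 among the 32285 genes of the files. All 6 were found: *Rdh12*, *Rdh8*, *Rdh11*, *Rdh14*, *Rbp3*, and *Abca4*. They were measured by droplet-based 3′ scRNA-Seq in the retina of male C57BL/6J mice aged 7 months, with 1 WT library and 1 library of the ND6 mutant, called ND6 here. The mutant carries the mtDNA change 13997 G>A in *ND6* (P25L), in a line that began with fusion of female embryonic stem cells and was kept through mutant mothers and WT fathers, while the WT line was kept by brother-sister mating. The retina was dissected and digested with enzymes to a suspension, the number of mice behind each library is not stated in the sources used here, and the counts do not read the mtDNA allele.

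Light turns the chromophore of the visual pigments into all-trans-retinal, which the photoreceptor has to clear and which the retina has to restore. ABCA4, a flippase of the disc membranes, moves retinal bound to lipid to the cytoplasmic side, and retinol dehydrogenases then reduce it to retinol. IRBP, the product of *Rbp3*, is secreted by photoreceptors and carries retinoids across the space between them and the retinal pigment epithelium (RPE), where the isomerase RPE65 and its partners rebuild the visual chromophore. RDH8 works in the outer segment, RDH12 in the inner segment, and RDH11 and RDH14 are related reductases of retinal that are also found outside photoreceptors.

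The genes lie on 4 chromosomes of mm10. *Rdh12* (ENSMUSG00000021123) spans chr12:79208914-79222665 on the plus strand, and *Rdh11* (ENSMUSG00000066441) chr12:79174337-79192293 on the minus strand, so that the pair is head to head with 16620 bases and 0 annotated genes between them. *Rdh14* (ENSMUSG00000020621), with 2 exons, lies apart from them at chr12:10390772-10395562 on the plus strand. *Rdh8* (ENSMUSG00000053773) spans chr9:20818503-20826117 and *Rbp3* (ENSMUSG00000041534) chr14:33954003-33964216, both on the plus strand. *Abca4* (ENSMUSG00000028125), the longest with up to 50 exons, spans chr3:122044443-122180123 on the plus strand, where the annotation also has 2 antisense pseudogenes. The longest run of bases shared by any pair of the 4 dehydrogenase transcripts was 14, and their last 500 bases shared 0 runs of 25 bases.

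The promoters of the 3 abundant genes are shown, because *Rbp3* and *Abca4* were higher in the ND6 library and *Rdh12* was lower. The letters are the 250 bases before the RefSeq start site in GRCm38.p6, on the plus strand, and read 5′ to 3′. Capitals mark TAATCC, the core that the photoreceptor factor CRX binds, and TGCTGA, the core bound by the rod factor NRL, each on either strand (GGATTA and TCAGCA on the opposite strand). The pair of motifs does not overlap in these windows.
Rbp3, chr14:33953753-33954002: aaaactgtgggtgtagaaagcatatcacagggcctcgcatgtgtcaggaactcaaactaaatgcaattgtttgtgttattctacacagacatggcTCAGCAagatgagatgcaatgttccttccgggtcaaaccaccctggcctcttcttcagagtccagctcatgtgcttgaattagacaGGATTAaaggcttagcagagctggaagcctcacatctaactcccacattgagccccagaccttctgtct
Abca4, chr3:122044210-122044459: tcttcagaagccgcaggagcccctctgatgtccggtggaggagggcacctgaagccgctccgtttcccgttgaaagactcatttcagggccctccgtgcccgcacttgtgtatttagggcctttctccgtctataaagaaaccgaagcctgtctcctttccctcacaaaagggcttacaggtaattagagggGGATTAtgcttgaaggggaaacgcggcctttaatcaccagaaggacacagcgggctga
Rdh12, chr12:79208663-79208912: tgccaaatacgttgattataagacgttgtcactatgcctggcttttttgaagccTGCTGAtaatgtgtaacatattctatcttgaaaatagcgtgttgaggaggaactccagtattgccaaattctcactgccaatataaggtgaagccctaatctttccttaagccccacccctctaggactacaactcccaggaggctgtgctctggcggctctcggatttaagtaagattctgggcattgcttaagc
The TAATCC core began 69 bases before the start in *Rbp3* and 58 bases before it in *Abca4*, in both cases on the opposite strand. The *Rdh12* window held 0 copies of it and had the TGCTGA core 196 bases before the start, with another copy at base 9 after the start. *Rbp3* also had the second motif, 155 bases before its start. The genes not shown, *Rdh8*, *Rdh11*, and *Rdh14*, held 0 copies of TAATCC, and *Rdh14* was slightly higher in ND6 rods. *Rdh14* had the TGCTGA core 250 bases before its start. With 50 bases after the start included, TAATCC was present in 7.06% of 32851 RefSeq promoters, TGCTGA in 19.5%, and both in 1.36%, so these matches describe the windows and say nothing of binding.

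After the limits on UMIs, genes, and mtDNA-encoded UMIs, 12529 WT cells with 54524401 UMIs and 18395 ND6 cells with 62949610 UMIs remained, with medians of 1878 and 1416 UMIs per cell. The limit of 20% on mtDNA-encoded UMIs had removed 45.9% of WT and 17.3% of ND6 barcodes, and 59 barcodes occurred in both libraries. Clusters formed without the 6 genes were named from marker lists. The largest classes were rods (10334 WT and 14087 ND6 cells) and cones (620 and 1108), followed by RPE (296 and 929), bipolar cells (237 and 634), microglia or macrophages (241 and 137), amacrine cells (76 and 302), Müller cells (36 and 82), and red blood cells (74 and 22). Another 615 WT and 1094 ND6 cells stayed unnamed. In the amacrine class, 7 of the markers of retinal ganglion cells were raised beside the 6 amacrine markers, and in the RPE class *Best1* had 0 UMIs. All 9 cone markers were 14.8 to 72.8 times as high in cones as in the rest. The 10 rod markers were only 1.20 to 1.89 times as high in rods as in the rest, since rod RNA was present in every class: they made up 73730 WT and 75855 ND6 UMIs per 1000000 (CPM) in rods, 56972 and 62853 in cones, and 26548 and 35568 in RPE. Free RNA, read from barcodes with 10 to 100 UMIs, held 51109 and 56218 CPM of them. For that reason levels are also given for barcodes with under 2% rod-marker UMIs, a limit chosen after the data were seen.

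There was 1 library per genotype, so no spread between mice is known and no test, standard error, or p-value was computed. Brackets give 95% intervals, exact Poisson for levels, exact conditional binomial for log2 ratios, and exact Clopper-Pearson for shares of cells, and all of them cover counting error only. Levels are the UMIs of all cells in a class as counts per 1000000 (CPM), and log2 ratios are ND6 over WT of the CPM. Levels are compared between classes and libraries and not between genes, because a 3′ UMI count depends on how well each transcript is captured.

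In rods, the dehydrogenases *Rdh12*, *Rdh8*, and *Rdh11* were lower in the ND6 library, the carrier *Rbp3* and the flippase *Abca4* were higher, and *Rdh14* was slightly higher. *Rdh12*, whose human counterpart is mutated in early-onset retinal dystrophy, stood at 868.6 CPM (859.1 to 878.3) in WT rods and 650.2 CPM (641.9 to 658.6) in ND6 rods. Its log2 ratio was -0.42 (-0.44 to -0.39), from 31449 and 23306 UMIs. *Rdh11* had 49.7 CPM (47.5 to 52.1) in WT and 29.8 CPM (28.0 to 31.6) in ND6 rods, a log2 ratio of -0.74 (-0.85 to -0.63). *Rdh8* was sparse, with 192 UMIs in WT and 100 UMIs in ND6 rods, or 5.30 CPM (4.58 to 6.11) and 2.79 CPM (2.27 to 3.39). Its log2 ratio of -0.93 (-1.29 to -0.57) was the lowest of the 6 in rods and also had the widest interval.

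*Rbp3* had 2063 CPM (2048 to 2077) in WT rods and 2530 CPM (2514 to 2547) in ND6 rods, a log2 ratio of 0.29 (0.28 to 0.31). *Abca4* had 565.7 CPM (557.9 to 573.5) and 747.2 CPM (738.2 to 756.2), a log2 ratio of 0.40 (0.38 to 0.43). *Rdh14* had 42.9 CPM (40.8 to 45.1) and 47.5 CPM (45.3 to 49.8), a log2 ratio of 0.15 (0.05 to 0.25). The rod markers together had a ratio of 0.04 (0.04 to 0.04) in rods, a smaller difference than that of any of the 6 genes. Per 1000 rod-marker UMIs, *Rdh12* had 11.8 UMIs in WT and 8.57 UMIs in ND6 rods, and *Abca4* had 7.67 and 9.85.

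Read against all genes, the size of these ratios was ordinary for *Rbp3* and *Abca4* and less so for *Rdh8* and *Rdh11*. Of 10948 genes with at least 100 UMIs in rods, 11.9% were higher and 7.12% lower in ND6 by at least 0.5 on the log2 scale. Of the 6 genes, 0 were past that size in the higher direction and 2 (*Rdh8* and *Rdh11*) in the lower. The ratio of *Rdh8* was above that of 0.97% of these genes, *Rdh11* above 2.10%, *Rdh12* above 10.96%, *Rdh14* above 67.6%, *Rbp3* above 78.9%, and *Abca4* above 84.4%. Over all cells, 17.0% of 13074 genes were higher and 6.64% lower by that size, and the same 2 of the 6 genes were past it, with -0.83 (-1.12 to -0.54) for *Rdh8* and -0.65 (-0.73 to -0.56) for *Rdh11*. The other ratios over all cells were -0.43 (-0.45 to -0.41) for *Rdh12*, 0.05 (-0.03 to 0.13) for *Rdh14*, 0.25 (0.24 to 0.26) for *Rbp3*, and 0.35 (0.33 to 0.37) for *Abca4*.

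**Figure D1:**
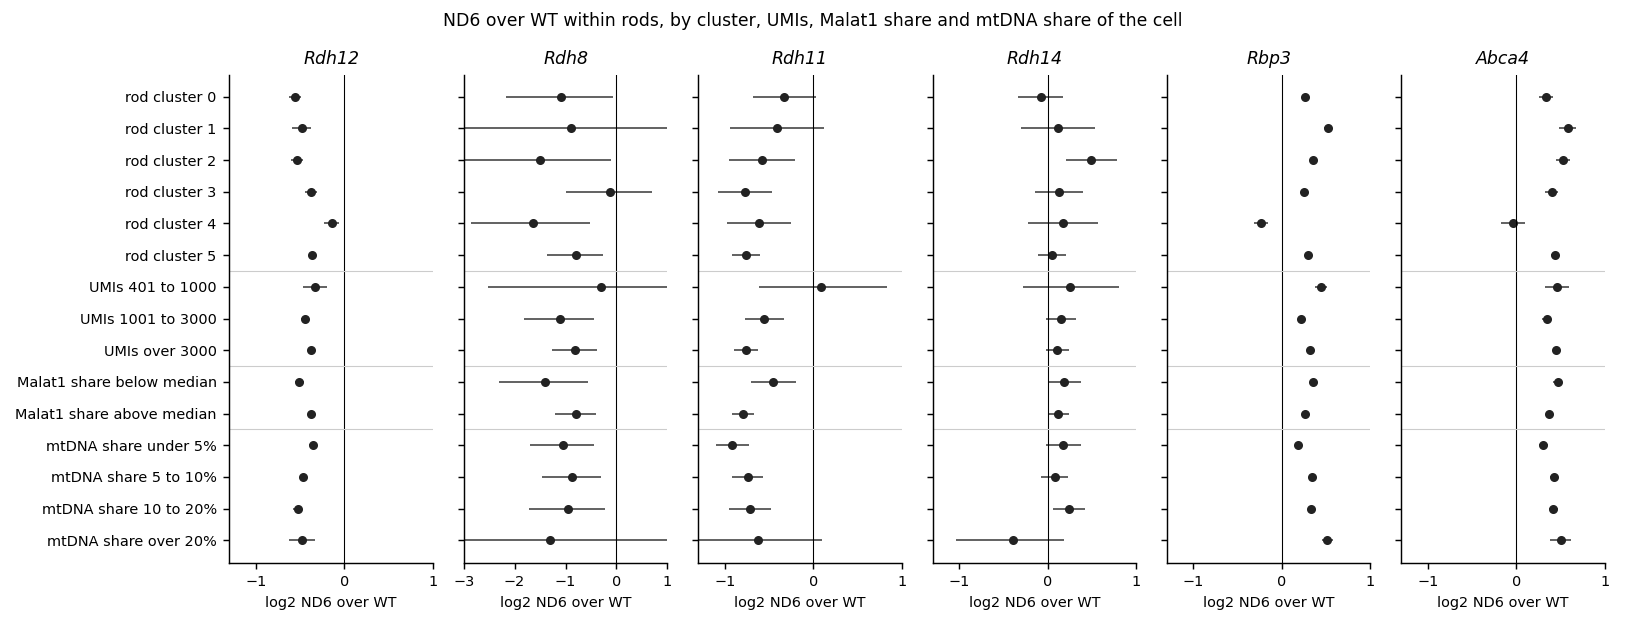
ND6 over WT on the log2 scale for each gene within rods, by rod cluster, UMIs per cell, *Malat1* share, and mtDNA share. Points are log2 ratios of summed UMIs and lines are 95% counting intervals, cut at the panel edge for *Rdh8*; *Rdh12* lies below 0 in every row, while *Rbp3* and *Abca4* lie above 0 except in rod cluster 4.

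The directions in rods were then read within subsets of cells, since the libraries differed in depth and in the share of nuclear RNA. *Rdh12* was lower in all 6 rod clusters (-0.56 to -0.14), in all 3 bins of UMIs per cell (-0.44 to -0.33), in both bins of the share of *Malat1*, a nuclear RNA (-0.51 and -0.38), and in all 4 bins of mtDNA share (-0.53 to -0.35), each with an interval below 0. The last of these bins held 6195 WT and 1156 ND6 rods with over 20% mtDNA-encoded UMIs that the filter had removed. *Rdh11* was lower in all 6 rod clusters (-0.77 to -0.33), 4 of them with an interval below 0, but in rods of the lowest UMI bin (up to 1000 UMIs) its ratio was 0.09 (-0.61 to 0.83). *Rdh8* was lower in all 6 clusters (-1.63 to -0.13), 4 of them with an interval below 0.

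*Rbp3* and *Abca4* were higher in 5 of the 6 rod clusters and in every bin of UMIs, *Malat1*, and mtDNA share. The exception was rod cluster 4, the *Malat1*-rich cluster with 1002 WT and 1623 ND6 cells, in which *Malat1* took 7.42% and 8.36% of UMIs. There *Rbp3* went from 1069 to 906.6 CPM, -0.24 (-0.32 to -0.16), and *Abca4* from 363.5 to 354.1 CPM, -0.04 (-0.17 to 0.10). Rod markers in that cluster were at 48065 and 46360 CPM, and 0 of them were among its leading 10 genes. *Rdh14* was higher in 5 of 6 clusters, with an interval above 0 in 1 of them (0.49, 0.21 to 0.78, in cluster 2).

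Within each library the genes were also spread unevenly between rods rich and poor in *Malat1*. *Rdh11* was higher in the rich rods, by 0.91 (0.72 to 1.09) in WT and 0.57 (0.35 to 0.78) in ND6 on the log2 scale. *Rdh12* was higher there by 0.15 (0.11 to 0.18) and 0.28 (0.23 to 0.32). *Rbp3* was lower there, at -0.21 (-0.23 to -0.18) and -0.30 (-0.32 to -0.28). For *Abca4* the values were 0.00 (-0.04 to 0.05) and -0.10 (-0.13 to -0.06). Rods above the median *Malat1* share made up 42.4% of WT and 55.5% of ND6 rods, and the ND6 over WT ratios within each bin were given above.

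The share of rods with at least 1 UMI, after each cell was thinned to 400 UMIs, had the same directions for these genes. It was 27.1% (26.3 to 28.0) of WT and 21.3% (20.7 to 22.0) of ND6 rods for *Rdh12*, 52.3% (51.4 to 53.3) and 59.3% (58.5 to 60.1) for *Rbp3*, and 18.9% (18.1 to 19.6) and 23.7% (23.0 to 24.4) for *Abca4*. For *Rdh11* it was 1.78% (1.53 to 2.05) and 1.06% (0.90 to 1.24), and for *Rdh14* 1.86% (1.61 to 2.14) and 1.95% (1.72 to 2.19). Without thinning, 73.9% of WT and 58.5% of ND6 rods had a *Rdh12* UMI at median depths of 1749 and 1334 UMIs. Microglia or macrophages, which are not known to use *Rdh12*, *Rbp3*, or *Abca4*, had median depths of 1590 and 1297. After thinning, a *Rdh12* UMI was found in 13.3% (9.26 to 18.2) of WT and 12.4% (7.40 to 19.1) of ND6 cells. An *Rbp3* UMI was found in 27.0% and 29.2%, and an *Abca4* UMI in 8.71% and 10.9%. The rod shares of these 3 genes lay above that background in both libraries. For *Rdh11* the background was 0.41% (0.01 to 2.29) and 1.46% (0.18 to 5.17), intervals that held the rod shares, so its thinned shares cannot be told from background at this depth. For *Rdh14* the thinned count was 0 of 241 WT and 0 of 137 ND6 cells. This allows up to 1.24% and 2.19%, so its ND6 rod share was within what that count allows.

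**Figure D2:**
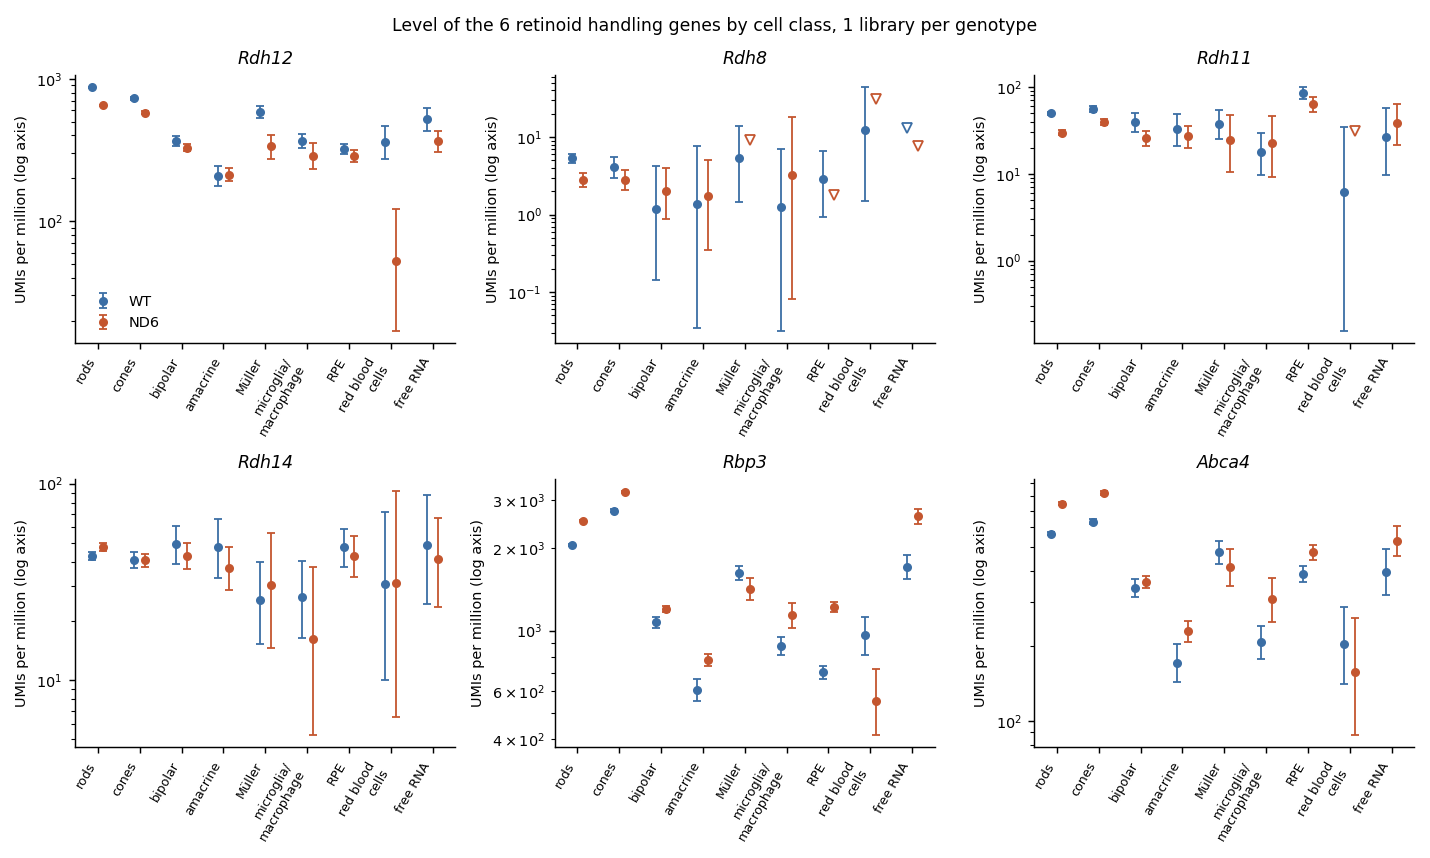
Level of each gene in UMIs per 1000000 (log axis) in every class and in free RNA, WT in blue and ND6 in orange. Bars are exact 95% Poisson intervals for counting error, and open triangles mark the level of 3 UMIs where 0 were counted; *Rdh12* is highest in rods, *Rbp3* and *Abca4* in cones (for *Abca4* an order that turns under other processing), and *Rdh11* in RPE.

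Across the named classes, *Rdh12* was highest in rods, then cones (727.6 and 577.9 CPM), then Müller cells (587.6 and 334.1 CPM), in both libraries, although in ND6 Müller cells overlapped with bipolar cells (327.3 CPM). Rods and cones did not overlap in either library, at 0.26 (0.22 to 0.29) rod over cone in WT and 0.17 (0.13 to 0.21) in ND6 on the log2 scale. *Rbp3* and *Abca4* were highest in cones, with rods next, but for *Abca4* this order turned to rods above cones under several other ways of scaling, weighting, or choosing cells, in both libraries. *Rbp3* stood at 2745 CPM (2714 to 2777) in WT and 3215 CPM (3187 to 3244) in ND6 cones, and *Abca4* at 631.1 CPM (616.0 to 646.4) and 824.7 CPM (810.3 to 839.3). *Rdh11* was highest in RPE, at 85.7 CPM (72.6 to 100.6) and 63.6 CPM (52.0 to 76.9), so the label of a photoreceptor gene does not describe its level here. *Rdh14* ran from 25.5 to 49.2 CPM in WT and from 16.2 to 47.5 CPM in ND6, and none of its 7 pairs of neighbouring classes was separated by the intervals. *Rdh8* had at most 8 UMIs in any named class other than rods and cones, and its order cannot be read at this depth. In free RNA, *Rdh8* had 0 UMIs in both libraries, which allows up to 13.3 and 7.71 CPM.

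The level of *Rdh12* was also read against the rod markers of each class. Per 1000 rod-marker UMIs, *Rdh12* had 11.8 UMIs in WT rods, 12.1 in bipolar cells, 12.4 in amacrine cells, 11.5 in microglia or macrophages, and 12.1 in RPE, although its CPM there ran from 206.7 to 366.2. In ND6 the same values were 8.57, 10.502, 9.94, 8.72, and 8.07. Müller cells were at 14.3 (12.99 to 15.7) in WT, above rods, and at 9.03 (7.42 to 10.9) in ND6, an interval that held the rod value. Red blood cells were at 8.87 (6.73 to 11.5) and 3.25 (1.05 to 7.58), and free RNA at 10.1 (8.37 to 12.1) and 6.49 (5.47 to 7.65). The other dehydrogenases varied more between some classes, with *Rdh11* at 0.67 UMIs in WT rods and 3.23 in WT RPE and *Rdh14* at 0.58 in WT rods and 2.85 in WT amacrine cells.

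**Figure D3:**
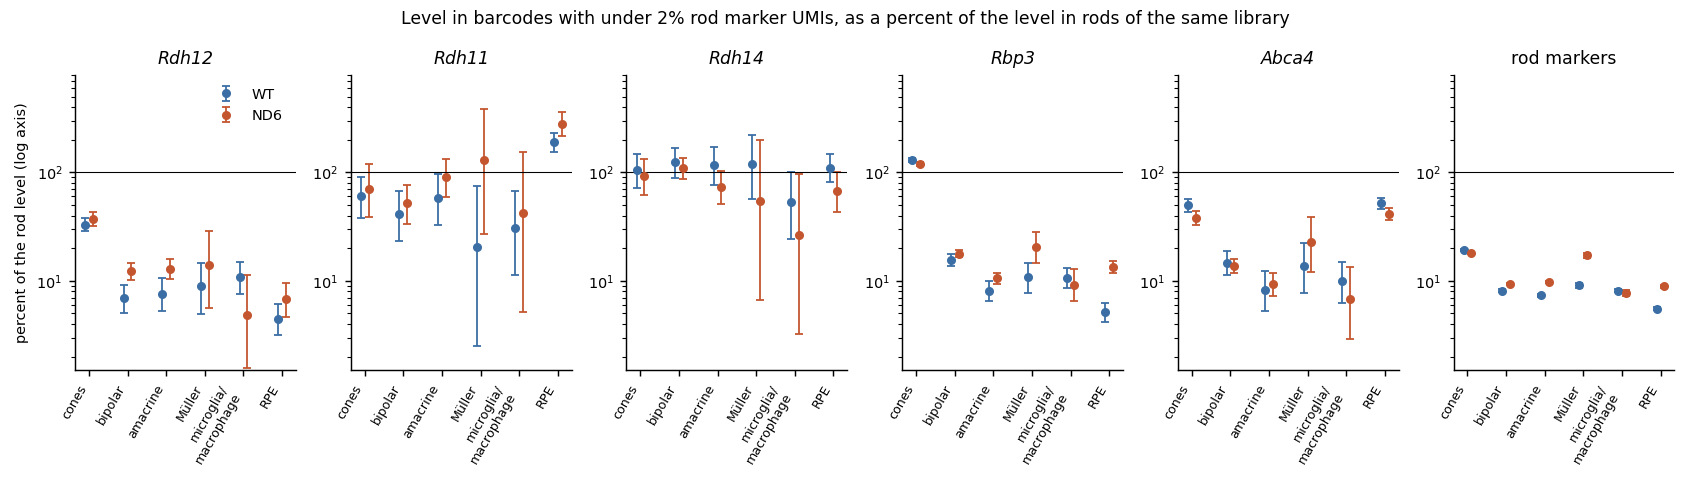
Level in barcodes with under 2% rod-marker UMIs as a percent of the level in rods of the same library (log axis), by class, with 95% counting intervals; the last panel shows the rod markers themselves. *Rbp3* in cones and *Rdh11* in RPE lie above the line at 100, *Abca4* in RPE lies near 50, and *Rdh14* lies around 100 in most classes.

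Barcodes with under 2% rod-marker UMIs showed where each transcript remained when little rod RNA was present. In such bipolar cells (154 WT and 397 ND6), rod markers stood at 8.09% and 9.31% of their level in rods. *Rdh12* stood at 6.91% and 12.3%, *Abca4* at 14.7% and 13.7%, and *Rbp3* at 15.7% and 17.8%. In amacrine cells (58 and 208), *Rdh12*, *Rbp3*, and *Abca4* stood between 7.58% and 12.9% of the rod level, beside 7.34% and 9.84% for rod markers. In RPE (157 and 550), *Rdh12* stood at 4.48% and 6.78%, beside 5.51% and 8.89% for rod markers. *Rbp3* and *Abca4* were thus close to the rod markers in amacrine cells, as was *Rdh12* in RPE and in WT bipolar and amacrine cells. In ND6 bipolar and amacrine cells, *Rdh12* lay above them. Rods over ND6 bipolar cells gave 3.03 (2.78 to 3.29) for *Rdh12* and 3.43 for rod markers on the log2 scale. Over ND6 amacrine cells the values were 2.95 (2.64 to 3.28) and 3.35. The barcodes were chosen for few rod-marker UMIs, which also holds down the rod-marker values beside the genes.

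*Abca4* and *Rdh11* stood well above the rod markers in RPE. *Abca4* stood at 51.9% of the rod level in WT, or 293.5 CPM (261.4 to 328.6), and at 41.3% in ND6, or 308.6 CPM (270.1 to 351.1). *Rdh11* stood at 189.5% in WT, or 94.3 CPM (76.5 to 115.0), and at 283% in ND6, or 84.2 CPM (64.7 to 107.7). *Rbp3* in the same RPE cells was at 5.14% in WT and 13.4% in ND6, with rod markers at 4063 and 6741 CPM. *Rdh14* was at 125% and 109% of the rod level in bipolar cells, 117% and 73.8% in amacrine cells, and 111% and 67.5% in RPE, and the interval of rods over each of these classes included 0. In microglia or macrophages (112 and 72 cells) *Rdh14* was at 53.2% and 26.6%, from 9 and 2 UMIs.

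Cones with under 2% rod-marker UMIs numbered 133 in WT (21.5% of cones) and 202 in ND6 (18.2%). In them *Rbp3* stood at 129% of the rod level in WT and 119.6% in ND6, *Rdh14* at 104.9% and 92.01%, *Rdh11* at 60.3% and 70.9%, *Abca4* at 49.7% and 37.9%, and *Rdh12* at 33.0% and 37.3%, beside 19.1% and 18.0% for the rod markers. *Rbp3* was therefore the only 1 of the 6 whose interval lay above the rod level in these cones in both libraries. The order of cones above rods for *Abca4* in the whole class turned around, with rods over such cones at 1.01 in WT and 1.40 in ND6 on the log2 scale.

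**Figure D4:**
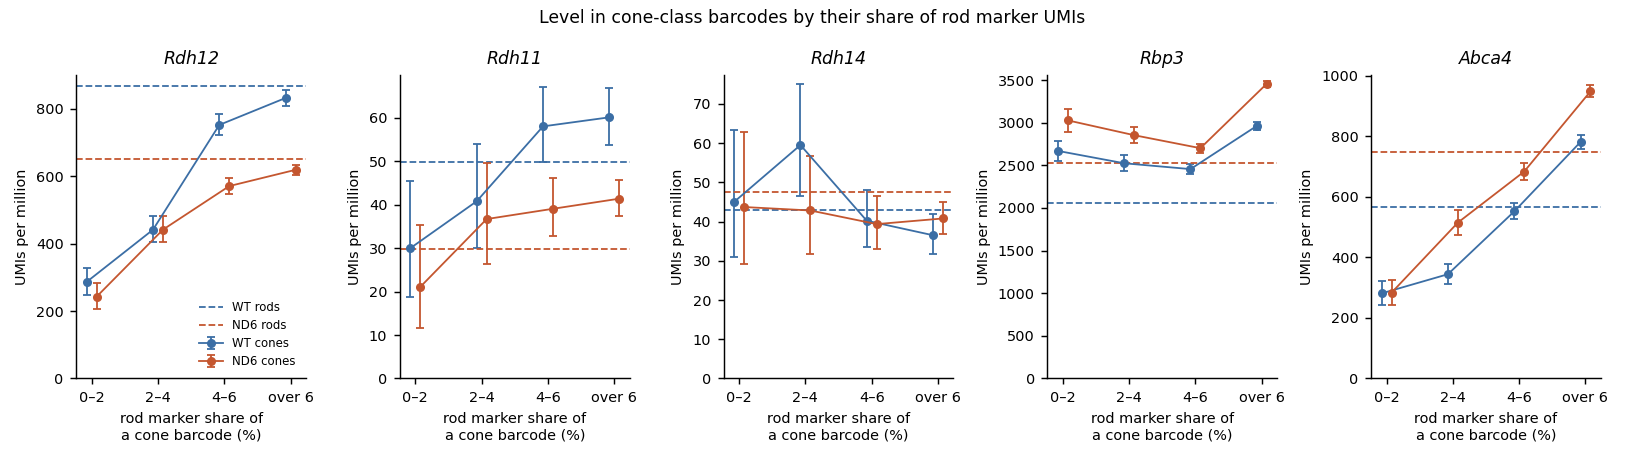
Level of 5 of the genes in cone-class barcodes (UMIs per 1000000) by the share of rod-marker UMIs of the barcode, WT in blue and ND6 in orange, with 95% Poisson intervals; dashed lines are the level in rods of each library and *Rdh8* is too sparse to plot. *Rdh12* and *Abca4* are higher with the share of rod markers in both libraries, *Rbp3* stays between 2455 and 3456, and the libraries meet for *Abca4* at the lowest share.

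Within the cone class the levels of *Rdh12* and *Abca4* were higher where a barcode held more rod-marker UMIs. *Rdh12* had 286.5, 441.3, 752.2, and 832.2 CPM in WT cones with rod-marker shares of 0 to 2, 2 to 4, 4 to 6, and over 6%, and 242.7, 441.4, 570.7, and 619.0 CPM in ND6. *Abca4* had 281.1, 344.4, 551.7, and 781.2 CPM in WT and 283.4, 514.8, 683.5, and 948.4 CPM in ND6. In the bin of over 6%, *Abca4* was above rods, at 138% of the rod level in WT and 127% in ND6. *Rdh12* there was at 95.8% and 95.2%, beside 95.4% and 97.2% for rod markers. *Rbp3* ran only from 2455 to 2962 CPM in WT and from 2701 to 3456 CPM in ND6. The bins with more rod markers also held deeper barcodes, from medians of 5649 WT and 3509 ND6 UMIs to 20994.5 and 20615.5. Read by depth, WT cones of over 3000 and up to 10000 UMIs had fewer rod markers than WT cones of at most 3000 UMIs (27348 against 61663 CPM), and also less *Rdh12* (400.7 against 593.0 CPM) and *Abca4* (339.3 against 510.8 CPM). In ND6 the same bins had similar rod markers (39397 and 38178 CPM), and *Rdh12* was at 409.1 and 356.2 CPM with overlapping intervals, as was *Abca4* at 559.5 and 571.1 CPM. Whether these barcodes held a cone and a rod together was not tested, and no doublet caller was run.

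For the whole cone class the ND6 over WT ratios had the same directions as in rods for 5 of the 6 genes, all but *Rdh14*, but the values depended on which cones were counted. Over all cones *Rdh12* was at -0.33 (-0.38 to -0.29), *Rdh11* at -0.48 (-0.65 to -0.31), *Rdh8* at -0.52 (-1.17 to 0.12), *Rdh14* at -0.00 (-0.18 to 0.18), *Rbp3* at 0.23 (0.21 to 0.25), and *Abca4* at 0.39 (0.34 to 0.43). Of 10035 genes with at least 100 UMIs in cones, 7.22% were higher and 6.21% lower by at least 0.5, against 0 of the 5 members with at least 100 UMIs in either direction. *Rdh8*, with 43 UMIs in each library, was under that minimum. In cones with under 2% rod-marker UMIs, *Rdh12* was at -0.24 (-0.54 to 0.06), *Rdh11* at -0.51 (-1.59 to 0.52), *Rdh14* at -0.04 (-0.81 to 0.72), and *Abca4* at 0.01 (-0.28 to 0.30). *Rbp3* was still at 0.18 (0.09 to 0.27) there, the only 1 of the 6 with an interval on 1 side of 0.

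A set of deep WT barcodes carried most of the WT cone counts. When genes were scaled over both libraries before clustering, 132 WT cones with a median of 45429 UMIs, which held 62.9% of WT cone UMIs, fell into a cluster of 140 WT and 0 ND6 cells led by *Egr1*, *Arrdc3*, *Fos*, and *Hspa1b*. Leaving them out took deep cones from WT alone. ND6 kept its 152 cones of over 30000 UMIs, which held 45.1% of ND6 cone UMIs. Without the 132 WT cones, *Rdh12* had 545.4 CPM in WT cones against 577.9 CPM in ND6, 0.08 (0.02 to 0.15), so its direction turned. *Abca4* then had 442.1 against 824.7 CPM, 0.90 (0.83 to 0.97), and *Rdh14* had 51.0 against 40.7 CPM, -0.32 (-0.56 to -0.09). *Rdh11* was at -0.09 (-0.34 to 0.17) and *Rbp3* at 0.24 (0.21 to 0.27). Rod markers were then at 41235 CPM in WT and 62853 CPM in ND6 cones, 0.61 (0.60 to 0.62), and the cone arrestin *Arr3* at -1.25 (-1.28 to -1.21), so the makeup of the cones compared also differed. Their part in these ratios was not tested. With all cones of both libraries read by depth, *Rdh12* was at -0.36 (-0.41 to -0.30) over 30000 UMIs. It was at -0.29 (-0.37 to -0.21) over 10000 and up to 30000 UMIs. Over 3000 and up to 10000 UMIs it was at 0.03 (-0.11 to 0.18), and at most 3000 UMIs at -0.74 (-1.12 to -0.34). *Abca4* was at 0.30 (0.24 to 0.35), 0.61 (0.52 to 0.70), 0.72 (0.58 to 0.87), and 0.16 (-0.21 to 0.54) in the same order.

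**Figure D5:**
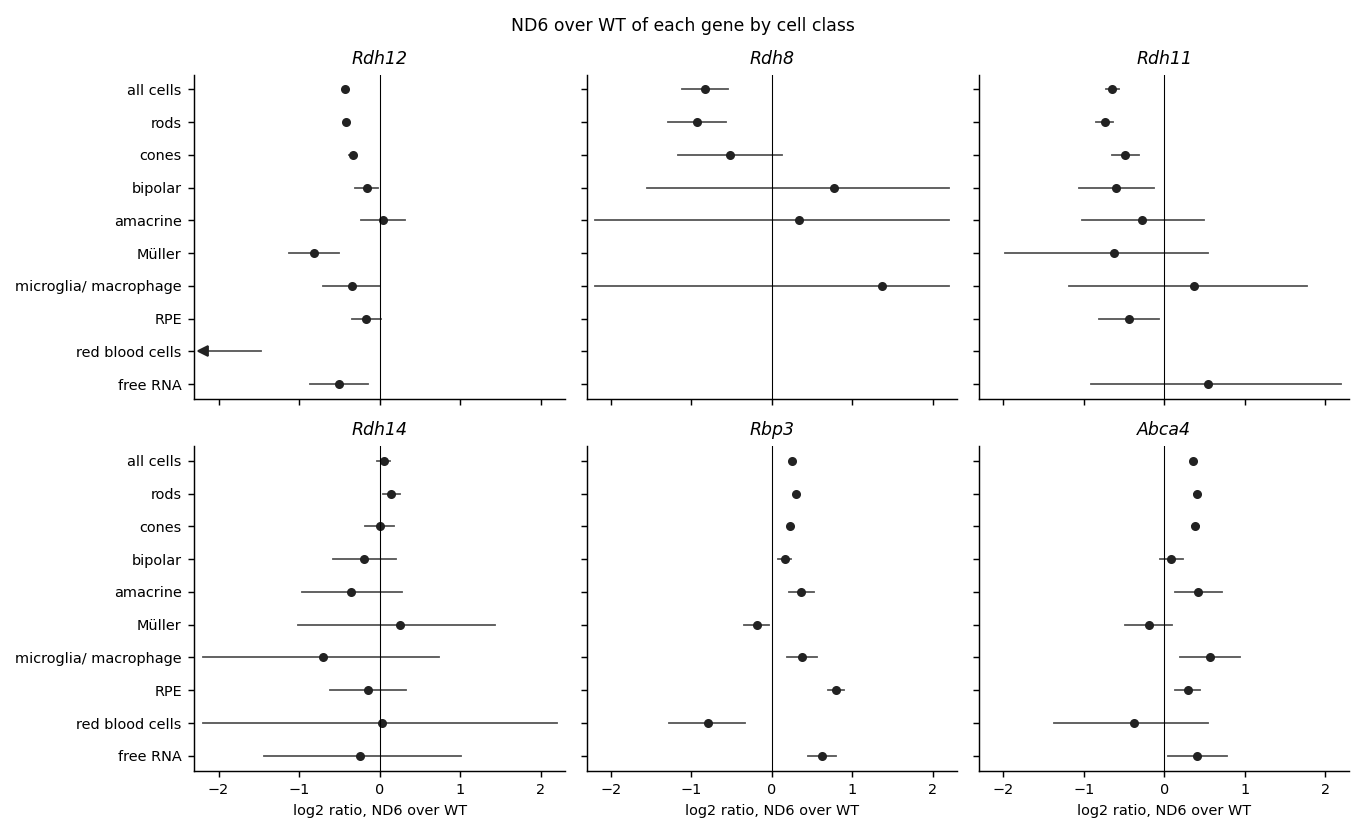
ND6 over WT on the log2 scale for each gene in all cells, each class, and free RNA, with 95% counting intervals cut at the panel edge and an arrow for a value beyond it. *Rdh12* and *Rdh11* lie below 0 and *Rbp3* and *Abca4* above 0 in rods and cones, and the intervals of *Rdh8* outside rods are wide.

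Ratios in the other classes are given beside those of free RNA and of rod markers. Free RNA had *Rdh12* at 517.4 CPM in WT and 364.8 CPM in ND6, -0.50 (-0.87 to -0.14), *Rbp3* at 1707 and 2620 CPM, 0.62 (0.45 to 0.79), and *Abca4* at 398.0 and 529.2 CPM, 0.41 (0.05 to 0.78). Over the 8 named classes, *Rdh12* was lower in 7, 5 of them with an interval below 0, and *Rbp3* and *Abca4* were each higher in 6. Müller cells had the ratio of -0.19 (-0.35 to -0.03) for *Rbp3*, with rod markers at -0.15 (-0.18 to -0.12). Red blood cells had -0.80 (-1.27 to -0.34) for *Rbp3*, with rod markers at -1.33 (-1.41 to -1.25). How far rod and free RNA set these ratios was not tested.

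The RPE ratios rested on unequal cells. RPE cluster 8 held 196 WT and 925 ND6 cells, and RPE cluster 16, with little rod RNA, held 100 WT and 4 ND6 cells. Over the whole class *Rbp3* was at 0.80 (0.69 to 0.90), but within cluster 8 it was at -0.18 (-0.29 to -0.08), from 1417 CPM in WT to 1248 CPM in ND6. *Rdh12* was at -0.17 (-0.34 to 0.01) over the class and at -1.14 (-1.32 to -0.95) within cluster 8, where rod markers were at -0.52 (-0.54 to -0.50). *Abca4* was at 0.29 (0.14 to 0.44) over the class and 0.02 (-0.16 to 0.20) within cluster 8, and *Rdh11* at -0.43 (-0.81 to -0.06) and -0.14 (-0.63 to 0.36). WT cells of cluster 16 had 99.1 CPM (80.2 to 121.1) of *Rdh11* and 318.1 CPM (283.4 to 355.9) of *Abca4* beside 5364 CPM of rod markers.

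The other 20 genes, 17 of the retinoid cycle list used in the study and *Rgr*, *Dhrs3*, and *Rdh13* added here, act in RPE, Müller cells, blood transport, or photoreceptors and were mostly lower in ND6 over all cells. Of the 16 with at least 20 UMIs, 4 were higher and 12 lower, while 56.7% of all genes with as many UMIs were higher. Their median log2 ratio was -0.11, beside 0.07 over all those genes. In rods 3 of 14 were higher and 11 lower (median -0.16, all genes 0.02), beside 52.9% of all genes higher. In cones 11 of 15 were higher and 4 lower (median 0.26, all genes -0.01), beside 48.5% of all genes higher. Among genes with at least 200 UMIs over all cells, *Rpe65*, the isomerase (111.8 and 73.8 CPM, -0.60, -0.65 to -0.54) and *Rdh10*, a retinol dehydrogenase (61.9 and 40.9 CPM, -0.60, -0.67 to -0.52), were among the 3 lowest. The 3 highest at that depth were *Myo7a*, a motor of RPE and photoreceptors (0.25, 0.01 to 0.50), *Rdh13* (0.17, 0.01 to 0.33), and *Dhrs3*, a retinal reductase (-0.07, -0.11 to -0.02). Below it, *Rbp4*, the retinol carrier of blood, was at 1.35 (0.79 to 1.94) from 36 and 106 UMIs, and *Rdh16* at 1.09 (0.03 to 2.25) from 11 and 27 UMIs. These values over all cells also move with the part of the UMIs that came from RPE. That part was 1749541 of 54524401 UMIs in WT and 1652151 of 62949610 UMIs in ND6, so it was lower in ND6. As a share of cells RPE was higher in ND6, at 2.36% of WT and 5.05% of ND6 cells.

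In rods, among genes with at least 200 UMIs, *Rdh10* was the lowest at -0.71 (-0.88 to -0.54), with 21.2 and 12.9 CPM, and *Rpe65* was at -0.35 (-0.66 to -0.05). *Stra6*, the retinol receptor, was lower still at -1.20 (-1.94 to -0.50) but had 58 and 25 UMIs. The highest in rods at that depth were *Rdh13* at 0.27 (0.06 to 0.49), *Myo7a* at 0.10 (-0.31 to 0.50), and *Rlbp1*, the retinal carrier of Müller cells and RPE, at 0.09 (-0.00 to 0.19). In cones *Rdh10* was at -0.82 (-1.08 to -0.56), *Rdh13* at -0.05 (-0.35 to 0.26), and *Dhrs3* at 0.12 (0.01 to 0.23), while *Rgr*, the opsin of RPE and Müller cells, was at 0.86 (0.51 to 1.23), *Ttr*, a carrier made by RPE, at 0.53 (0.37 to 0.68), and *Rlbp1* at 0.27 (0.07 to 0.47). *Rpe65*, *Ttr*, and *Rgr* were also RPE markers, and their levels in rods and cones were a small fraction of that in RPE. In WT, *Rpe65* had 5.69 CPM in rods, 3.02 CPM in cones, and 3331 CPM in RPE. *Ttr* had 66.8, 46.3, and 50068 CPM, and *Rgr* had 14.4, 8.60, and 8363 CPM. The counts of higher and lower genes in rods and cones include them. How far RPE RNA set their ratios was not tested. *Dhrs3*, in contrast, had 131.1 CPM in WT rods. *Sdr9c7*, *Hsd17b6*, and *Dhrs9* had 0 UMIs in both libraries.

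Genes whose pattern over the 8 named classes of both libraries was most like that of a member were found by Pearson r of log2(CPM + 1), over 16 points that share libraries, depth, and rod RNA, and among 10204 genes. For *Rdh12* they were *Arl6* (0.99), *Acadm* (0.98), and *Ppp2r5c* (0.98). For *Rbp3* they included *Impdh1* (0.97), and for *Abca4* *Plekhb1* (0.93), *Podxl* (0.92), and *Pde6b* (0.92). *Rdh11* was most like *Etfrf1* (0.97), *Ufm1* (0.97), and *Hsdl2* (0.97). *Rdh14* and *Rdh8* reached at most 0.79 with *Mtln* and 0.84 with *Rpusd2*. Among the 6 genes themselves, *Rbp3* and *Abca4* were the most alike at 0.91, and *Rdh12* was at 0.81 with *Rbp3* and 0.77 with *Abca4*.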

How the data were processed

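Single-cell RNA was read as raw UMI counts per gene and barcode, deposited by the authors for 1 WT and 1 ND6 library after alignment to mm10 with Cell Ranger 3.0.2, named in the submitters' processing notes; the annotation release is not given in the sources used here. Barcodes were kept as cells above 400 UMIs and 200 genes when no more than 20% of UMIs were mtDNA-encoded, and 0 columns were left unmatched to a sample. Clustering left out the 6 genes, mtDNA-encoded genes, and other retinoid genes apart from RPE markers. It used 3000 variable genes scaled within each library, 30 principal components, 20 neighbours, and the Leiden method at resolution 1, which gave 21 clusters. A cluster was named from at least 20 cells and at least 3 markers raised at least 2-fold, with more of its own than of other markers among its top 10 genes, or, where no marker was among them, with the highest share of its list raised (the amacrine cluster and 1 bipolar cluster); rods, whose RNA was in every class, were named in a further step. This rule was settled after the clusters were seen. No doublet caller was run.

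UMIs were summed per class and divided by the class total to give UMIs per 1000000 (CPM). Intervals are exact and cover counting error only, and a count of 0 was given a floor of 3 UMIs. Between libraries there was no test, since each genotype had 1 library. Shares of cells were read after drawing 400 UMIs per cell. Genes of the retinoid list counted from 20 UMIs, and the 3 highest and 3 lowest with at least 200 UMIs were named; the most alike genes were the 3 with the highest r among genes with at least 500 UMIs. The members and lists were chosen with earlier results of these data known. Gene positions come from GENCODE for mm10 and promoters from RefSeq for GRCm38.p6, in which all 6 genes were matched. Scripts were tested on simulated data and used Python 3.11.15, numpy 2.4.6, scipy 1.17.1, pandas 2.3.3, scikit-learn 1.9.0, leidenalg 0.10.2, igraph 0.11.9, and matplotlib 3.10.9. Alternatives covered normalization, depth, filters, clustering, and class rules; those by rod-marker share, without the WT-only cluster, and within RPE clusters were chosen after seeing the data. Some genes of the lists and 1 alternative are not reported here.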

Additional observations from a re-analysis of the deposited data

Results flagged for a closer look

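*Rbp3* had opposite directions in different classes. In rods its ND6 over WT log2 ratio was 0.29, but it was -0.19 in Müller cells (36 WT and 82 ND6 cells) and -0.80 in red blood cells (74 and 22 cells). Rod markers were at -0.15 and -1.33 in those classes. Both signs turned under other processing, to between 0.42 and 0.93 in Müller cells and between 0.53 and 0.62 in red blood cells. The difference between classes was not tested, since each genotype had 1 library.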

How the results depend on the processing

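Of 859 values recomputed under alternatives, 625 stayed within the counting interval or, for counts, close to the reported value, and 194 moved further. Another 40 had the opposite sign to a reported value whose interval excluded 0. Opposite signs were not counted where the reported interval included 0, as for *Rdh14* in cones, which kept its sign in 10 of 14 alternatives. In rods every alternative kept the sign of *Rdh12* (-0.48 to -0.34), *Rdh8*, *Rdh11* (-0.78 to -0.58), *Rbp3* (0.25 to 0.51), and *Abca4* (0.35 to 0.50), while *Rdh14* was at -0.40 in rods above 20% mtDNA-encoded UMIs. No paired analysis was possible because each group had 1 library, and for the same reason no library could be left out. The causes of the changes below were not tested.

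*Rdh12* turned in cones with genes scaled over both libraries (0.11) and without the WT-only cluster (0.084). It turned in bipolar cells under the mean over cells (0.12), no mtDNA limit (0.20), joint scaling (0.24), and without the 10% of cells with the most UMIs (0.40), and in Müller cells under the mean over cells (0.20). *Rbp3* turned in Müller cells under the mean over cells (0.71), 400 UMIs per cell (0.93), joint scaling (0.45), and without the deepest cells (0.42). In red blood cells it turned under the median of ratios (0.61), no mtDNA limit (0.62), and per rod-marker UMI (0.53). *Abca4* turned in amacrine cells at 400 UMIs (-0.49) and in RPE under the mean over cells (-0.10) and per rod-marker UMI (-0.13). *Rdh11* turned in RPE at 400 UMIs (0.78).

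Rod over cone in WT turned for *Rdh11* under the median of ratios (0.080), 400 UMIs (0.021), joint scaling (0.26), classes from marker UMIs (0.51), cones under 2% rod markers (0.73), and without the WT-only cluster (0.24). For *Abca4* it turned in WT under the median of ratios (0.074), mean over cells (0.13), 400 UMIs (0.17), joint scaling (0.37), marker UMIs (0.83), cones under 2% (1.01), and without the WT-only cluster (0.36). In ND6 it turned for *Abca4* under the median of ratios (0.11), mean over cells (0.056), 400 UMIs (0.24), marker UMIs (0.79), and cones under 2% (1.40), for *Rdh11* under marker UMIs (0.37) and cones under 2% (0.50), and for *Rdh14* under marker UMIs (-0.11).

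Of the 6 genes, those lower by at least 0.5 over all cells numbered 1 under the mean over cells, and those higher by that size in rods numbered 2 above 20% mtDNA. In cones, where 1 (*Rdh8*, counted here without a minimum of UMIs) was lower as reported, those lower numbered 0 under the median of ratios, joint scaling, and without the WT-only cluster, and 2 with marker-UMI classes and per rod-marker UMI, and those higher numbered 1 under joint scaling, without the deepest cells, and without the WT-only cluster. As reported, the members higher in rods than in cones were *Rdh12*, *Rdh8*, and *Rdh14* in WT, and *Rdh12* and *Rdh14* in ND6. They numbered 5 in WT under the median of ratios and at 400 UMIs. In ND6 they numbered 4 under the median of ratios, mean over cells, 400 UMIs, marker UMIs, and cones under 2%. With at least 1 UMI, 5 other retinoid genes were higher in rods. With at least 20 UMIs, 19.8% of genes in rods and 12.3% in cones were higher by 0.5. Apart from this minimum and the median of ratios, the share of all genes past 0.5 was not computed under the alternatives. It was not computed for rod over cone either, so those counts of members have no background beside them.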
